A study of Mus musculus with 6 samples.

Results

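In all, 6 genes of extracellular nucleotide signalling were followed in microglia of a demyelinated lesion: P2ry12, P2ry13, P2ry6, P2rx4, P2rx7 and Entpd1. They were chosen by symbol, and all 6 were found among the 24984 genes of the count table. Nucleotides that leak from injured or active cells act on microglia through 2 families of surface receptors. P2Y receptors are coupled to G proteins, and P2X receptors are cation channels opened by ATP. P2ry12 encodes the ADP receptor that steers microglial processes towards damage and is a hallmark of the resting cell, and P2ry13 encodes a closely related ADP receptor that shares its inhibitory G protein coupling. P2ry6 encodes a receptor for UDP linked to phagocytosis. P2rx4 and P2rx7 encode ATP-gated channels, the latter needing high ATP and known as a trigger of the NLRP3 inflammasome. Entpd1 (CD39) encodes the surface enzyme that breaks ATP and ADP down to AMP, and so removes ligands of the ADP and ATP receptors.

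Microglia, the resident macrophages of the brain, came from the corpus callosum of male C57BL/6J mice aged 10 weeks, marked as wild type in the FPKM headers. Lysolecithin (LPC), a lipid that strips myelin, had been injected there stereotaxically as 2 µl of a 1% solution. Cells were taken 3 days later (LPC day 3, 3 libraries) or 10 days later (LPC day 10, 3 libraries), and every library came from an injected animal, so no uninjured level was measured. The cells entered a library by a flow sorting gate (live, CD11b+, Ly6G-, CD3-, low CD45) and not by a reporter, and polyadenylated RNA was amplified before sequencing. The design text gives 3 mice per time point, read here as 1 mouse per library, and nothing else in the labels shows that the libraries were independent. The p-values therefore measure the spread between these libraries. The comparison asks how the transcripts of each gene stood in the later against the earlier lesion.

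Of the members, 5 of 6 had entries in the RefSeq table of promoter windows for build GRCm38.p6, with 7 windows in all, each running from 250 bases before to 50 bases after a transcription start. P2ry6 had none. Printed here are the windows of P2ry12 and P2ry13, neighbouring genes whose levels moved together across libraries, and of P2rx4, whose level did not follow theirs. They lie at chr3:59262936-59263235 (minus strand), chr3:59210833-59211132 (minus strand) and chr5:122707294-122707593 (plus strand) in that order, and each is written 5′ to 3′ along its gene. The P2ry12 window lies wholly outside the gene span given below (59216272 to 59262871), so the sources place its start differently. Capitals mark a match to the motif GAGGAA.
P2ry12: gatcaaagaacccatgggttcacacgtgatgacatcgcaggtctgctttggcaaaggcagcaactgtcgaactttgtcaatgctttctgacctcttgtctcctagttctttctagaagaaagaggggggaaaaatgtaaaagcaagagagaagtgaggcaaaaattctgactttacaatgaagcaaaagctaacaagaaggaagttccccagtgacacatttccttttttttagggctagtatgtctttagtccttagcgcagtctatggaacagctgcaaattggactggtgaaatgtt
P2ry13: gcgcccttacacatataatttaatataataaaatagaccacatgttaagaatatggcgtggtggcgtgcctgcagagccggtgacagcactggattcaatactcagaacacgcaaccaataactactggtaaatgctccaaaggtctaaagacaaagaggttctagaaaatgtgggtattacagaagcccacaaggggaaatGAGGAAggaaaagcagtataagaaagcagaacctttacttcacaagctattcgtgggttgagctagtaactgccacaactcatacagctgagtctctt
P2rx4: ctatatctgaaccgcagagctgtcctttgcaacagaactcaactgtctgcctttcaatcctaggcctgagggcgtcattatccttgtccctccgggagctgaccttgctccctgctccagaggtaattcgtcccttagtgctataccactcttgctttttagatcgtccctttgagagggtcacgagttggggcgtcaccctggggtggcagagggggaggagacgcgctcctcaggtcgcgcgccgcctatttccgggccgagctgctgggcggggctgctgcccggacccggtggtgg
Here 3 motifs were searched on both strands, and none overlaps another: GAGGAA, the core of the site of PU.1 (the macrophage lineage factor Spi1), GAAA followed by any 2 bases and GAAA, a site of interferon regulatory factors, and TGANTCA, a site of AP-1. GAGGAA was in 4 of the 7 member windows, against 28.3% of all 32851 windows of the same 300 bases. These were the P2ry13 window, both alternative windows of P2rx7 and the second window of Entpd1. In P2ry13 it lay at bases 203 to 208 of the window, starting 48 bases before the start site. TGANTCA was in 1 of the 7, a P2rx7 window, against 7.81% of all windows. The interferon regulatory factor motif was in 0 of the 7, against 3.44% of all windows. The GC content was 42.3% in both the P2ry12 and the P2ry13 window and 60.3% in that of P2rx4. These matches describe letters in a window and were not tested for binding.

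The libraries held 5890081 to 9212197 counts assigned to genes, and LPC day 10 replicate 3 was unlike the rest on several measures. It had the lowest total, 10416 genes with a count against 12691 to 16013 in the others, and 0 counts for 15.4% of the genes tested against 0.551% to 5.37%. Its TMM scaling factor was 0.637 against 0.906 to 1.46, and 25.6% of the genes tested had their highest level in it. The 6 members together took 0.999% of its counts, against 0.214% to 0.456% in the other libraries. The 2 mitochondrial ribosomal RNAs took 14.5% of its counts and 9.32% of those of LPC day 10 replicate 1, against 27.1% to 32.9% in the other 4 libraries. LPC day 10 replicate 1 also had the highest TMM factor. Fold changes are therefore given with and without LPC day 10 replicate 3. The spread across all genes was wide (common biological coefficient of variation 1.11). All 12 microglia markers, among them Tmem119, Cx3cr1 and Csf1r, were detected, with summed levels of 23750 to 27210 CPM, that is, counts scaled to library size with TMM factors, at day 3. At day 10 the sums were 16090, 15640 and 35490 CPM, the last in replicate 3. All 12 markers had counts in each library, but the sums rest largely on Csf1r and Itgam. Itgam encodes CD11b, by which the cells were sorted, so its presence does not bear on the label of microglia. Tmem119 had 880, 858 and 483 CPM on day 3, then 540, 157.5 and 679 CPM on day 10 in replicates 1 to 3.

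None of the 6 members passed the test between time points. Across all 10535 genes tested with edgeR's quasi-likelihood test, 12 (0.114%) passed a Benjamini-Hochberg adjusted p of 0.05, all of them higher at day 10. Without LPC day 10 replicate 3, 1 of 12173 genes (0.00821%) passed, so a member's failure to pass is what most genes showed. The fitted log2 fold change, day 10 minus day 3, was positive for 6 of 6 members with all libraries (median 0.72, against -0.0023 over all genes tested). Without that library it was positive for 2 of 6 (median -0.69, against -0.09 over all genes). In these bulk samples fewer cells of a type and less RNA per cell cannot be told apart.

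P2ry12 (ENSMUSG00000036353, chromosome 3, 59216272 to 59262871, minus strand, GRCm38) had 1447, 2185 and 1282 CPM in LPC day 3 replicates 1 to 3 and 341, 1092 and 6775 CPM in LPC day 10 replicates 1 to 3. The lowest and the highest library were thus both of day 10, and the groups overlapped. The means were 1638 ± 481 CPM on day 3, then 2736 ± 3518 CPM on day 10 (SD, n = 3 each). The log2 fold change was 0.74 ± 0.74 (SE, adjusted p = 0.999 in edgeR). With LPC day 10 replicate 3 left out it was -1.22 ± 0.55 (adjusted p = 0.825 in edgeR, unadjusted 0.038), and both remaining day 10 libraries lay below every day 3 library. The direction for this homeostatic receptor depended on that library and also on the model. With all 6 libraries limma-voom gave -0.50, and 11 of 23 alternative fits were negative.

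P2ry13 (ENSMUSG00000036362, chromosome 3, 59207892 to 59210882, minus strand), the second ADP receptor, lies 5389 bp from P2ry12 on the same strand. It had 1098, 1412 and 572 CPM on day 3, then 322, 752 and 4722 CPM on day 10 in replicates 1 to 3, and the groups overlapped. Its lowest and highest libraries were the same as for P2ry12. The means were 1028 ± 425 and 1932 ± 2426 CPM, with a log2 fold change of 0.91 ± 0.75 (adjusted p = 0.999 in edgeR). When LPC day 10 replicate 3 was left out it was -0.96 ± 0.55 (adjusted p = 0.963 in edgeR). The groups still overlapped then, since day 3 replicate 3 lay below day 10 replicate 2.

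P2ry6 (ENSMUSG00000048779, chromosome 7, 100937630 to 100974649, minus strand), the UDP receptor, had 131, 91.7 and 199 CPM on day 3, then 219, 93.1 and 1263 CPM on day 10 in replicates 1 to 3. Day 10 replicates 1 and 3, the libraries of low mitochondrial ribosomal RNA, were the highest of all, while day 10 replicate 2 was close to the lowest day 3 library. The means were 140.4 ± 54.3 and 525 ± 642 CPM. The log2 fold change of 1.90 ± 0.86 was the largest among the members (adjusted p = 0.702 in edgeR, unadjusted 0.0328). Leaving out LPC day 10 replicate 3 gave 0.12 ± 0.62 (adjusted p = 0.9998 in edgeR). Its sign stayed positive in each of 23 alternative fits, from 0.08 to 2.44, and the lowest adjusted p among them was 0.175.

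**Figure D1:**
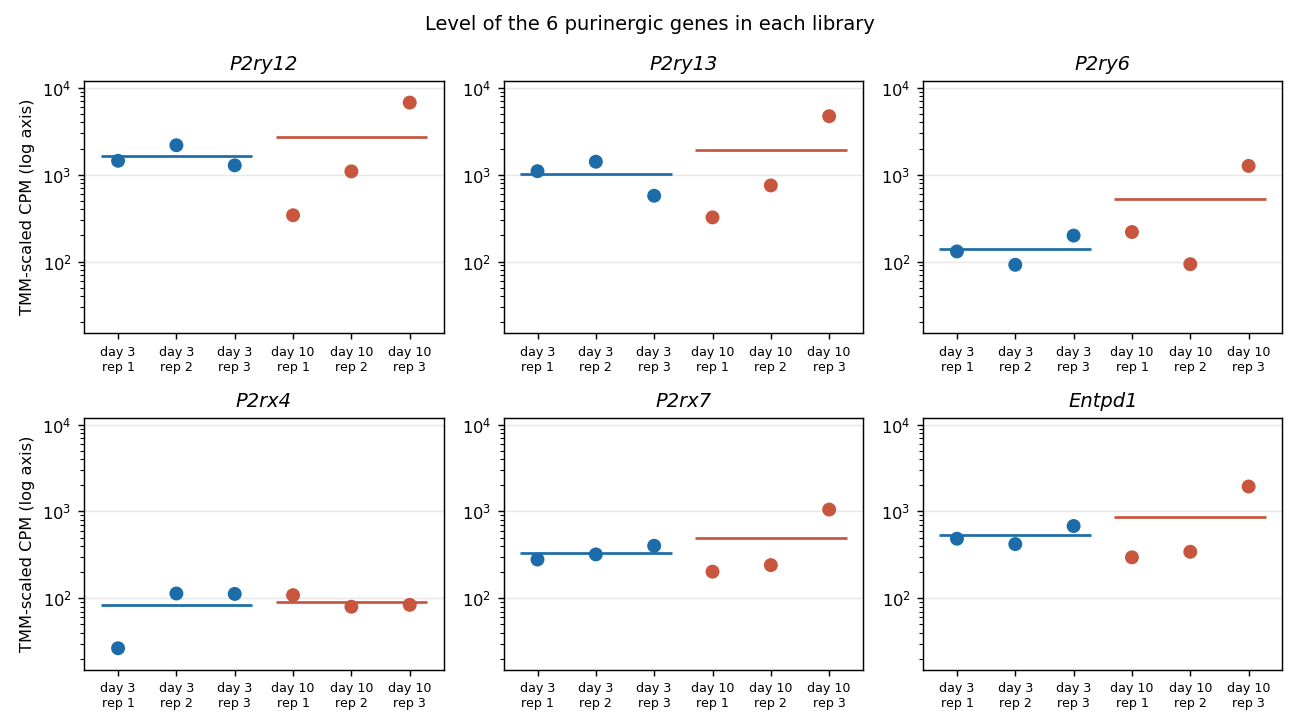
TMM-scaled CPM (log axis) of each of the 6 genes in the 3 LPC day 3 libraries (blue) and the 3 LPC day 10 libraries (red); points are libraries and horizontal lines are group means. LPC day 10 replicate 3 is the highest library for every gene except P2rx4, and LPC day 10 replicate 1 is the lowest for P2ry12, P2ry13, P2rx7 and Entpd1.

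P2rx4 (ENSMUSG00000029470, chromosome 5, 122707544 to 122729738, plus strand), the ATP-gated channel that cycles through lysosomes, had 26.5, 113 and 112 CPM on day 3, then 108, 79.8 and 83.9 CPM on day 10 in replicates 1 to 3. Day 3 replicate 1 was low and the other 5 libraries lay within 79.8 to 113 CPM. The means were 84.0 ± 49.8 and 90.7 ± 15.5 CPM, with a log2 fold change of 0.11 ± 0.95 (adjusted p = 0.999 in edgeR). Without LPC day 10 replicate 3 it was 0.13 ± 0.73, without day 3 replicate 1 it was -0.31, and without day 10 replicate 1 it was -0.04. P2rx4 was the only member not highest in LPC day 10 replicate 3, where its level was 0.774 times the median of the other libraries. For P2ry12, P2ry13, P2ry6, P2rx7 and Entpd1 that multiple was 5.28, 6.28, 9.67, 3.76 and 4.61.

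P2rx7 (ENSMUSG00000029468, chromosome 5, 122643911 to 122691432, plus strand), the channel of high ATP, lies 16111 bp before P2rx4. It had 279, 320 and 402 CPM on day 3, then 202, 241 and 1050 CPM on day 10 in replicates 1 to 3. Day 10 replicates 1 and 2 were below and replicate 3 above all day 3 libraries. The means were 333.5 ± 62.4 and 498 ± 479 CPM, with a log2 fold change of 0.58 ± 0.77 (adjusted p = 0.999 in edgeR). Leaving out day 10 replicate 3 gave -0.62 ± 0.54 (adjusted p = 0.9998 in edgeR).

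Entpd1 (ENSMUSG00000048120, chromosome 19, 40612366 to 40741602, plus strand), the ectonucleotidase, had 484, 420 and 679 CPM on day 3, then 296, 343 and 1936 CPM on day 10 in replicates 1 to 3. It split the day 10 libraries as P2rx7 did, 2 below and 1 above all day 3 libraries. The means were 528 ± 135 and 858 ± 934 CPM, with a log2 fold change of 0.70 ± 0.75 (adjusted p = 0.999 in edgeR). Over the libraries other than LPC day 10 replicate 3 it was -0.75 ± 0.52 (adjusted p = 0.9998 in edgeR).

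With all libraries 0 of 6 members had groups that did not overlap, against 8.45% of the genes tested. Without LPC day 10 replicate 3, P2ry12, P2rx7 and Entpd1 were lower in both day 10 libraries than in every day 3 library, 3 of 6 against 8.51% of the genes tested. In either direction 19.3% of the genes tested did not overlap in these libraries. The levels compared used TMM factors of all 6 libraries. In the authors' FPKM the middle day 10 value of Entpd1 (76.4) lay above its lowest day 3 value (75.5). For P2ry12 (442 against 453) and P2rx7 (48.78 against 52.35) the middle day 10 value lay below. P2rx7 and Entpd1 also varied together without LPC day 10 replicate 3 (r 0.94). An exact permutation test on 2 against 3 libraries cannot give a p below 0.1. In the same 5 libraries the fold change was negative for 10 of 12 microglia markers (median -0.64). Whether the lower values of the 3 members are part of that shift was not tested.

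**Figure D2:**
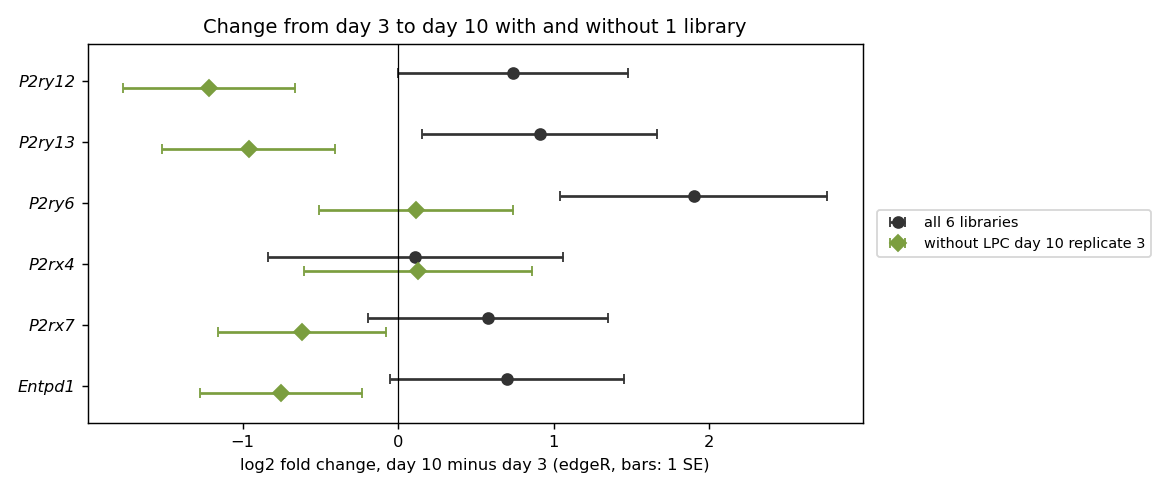
Log2 fold change (day 10 minus day 3) of each gene from edgeR, with bars of 1 SE, for all 6 libraries (circles) and without LPC day 10 replicate 3 (diamonds). P2ry12, P2ry13, P2rx7 and Entpd1 change sign when that library is left out, from 0.58 to 0.91 down to -0.62 to -1.22, and P2ry6 moves from 1.90 to 0.12.

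A second scale gave each member as counts per 1000 counts of the 12 microglia markers in its own library. It is no count of cells, since the markers themselves varied. Itgam, the most abundant marker and the gene of CD11b used in the gate, had 9397, 7594 and 10200 CPM on day 3. On day 10 Itgam had 3417, 6788 and 6980 CPM, below every day 3 library. With all libraries 7 of the 12 markers had a positive and 5 a negative fold change. P2ry12 stood at 58.0, 92.0 and 47.1 on day 3, then 21.2, 69.8 and 191 on day 10 in replicates 1 to 3. P2rx7 stood at 11.2, 13.5 and 14.8 on day 3, then 12.6, 15.4 and 29.6 on day 10. Entpd1 stood at 19.4, 17.7 and 25.0 on day 3, then 18.4, 21.9 and 54.5 on day 10. For all 3 genes the remaining day 10 libraries overlapped the day 3 libraries on this scale once LPC day 10 replicate 3 was left out. Fitted with this scaling and without that library, P2ry12 had a log2 fold change of -0.53, P2rx7 of 0.09 and Entpd1 of -0.04. P2ry13 had -0.29, and P2ry6 and P2rx4 had 0.84 each. With all 6 libraries the marker-scaled fold changes ran from 0.51 for P2rx4 to 1.75 for P2ry6.

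P2ry6 per 1000 marker counts was 5.23, 3.86 and 7.31 on day 3, then 13.6, 5.95 and 35.6 on day 10. It was highest in LPC day 10 replicates 1 and 3 on this scale too, with day 10 replicate 2 inside the day 3 range. P2rx4 was 1.06, 4.77 and 4.12 on day 3, then 6.74, 5.10 and 2.36 on day 10. LPC day 10 replicates 1 and 2 were here its highest libraries. P2ry13 was 44.0, 59.5 and 21.0 on day 3, then 20.0, 48.1 and 133 on day 10, with the groups overlapping.

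Ratios of members within a library do not depend on the scaling between libraries. For each 100 counts of P2ry12, P2ry13 had 75.9, 64.6 and 44.6 counts on day 3, then 94.5, 68.9 and 69.7 on day 10. P2ry6 had 9.02, 4.195 and 15.5 on day 3, then 64.1, 8.53 and 18.6 on day 10. Entpd1, the enzyme, had 33.5, 19.2 and 53.0 on day 3, then 86.7, 31.4 and 28.6 on day 10. LPC day 10 replicate 1, not replicate 3, had the highest ratio to P2ry12 for all 5 of the other members, and it had the lowest share of mitochondrial ribosomal RNA. The part of that share in these values was not tested. In that library P2ry12 made up 22.9% of the members' counts against 39.5% to 48.1% elsewhere, and P2ry6 made up 14.7% against 2.02% to 7.98%.

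The log2 ratio to P2ry12 was higher at day 10 on average for each of the 5 genes, and the groups overlapped for all 5. For P2ry6 it was -3.58 ± 0.95 at day 3 and -2.21 ± 1.47 at day 10 (SD, n = 3), a difference of 1.37 (two-sided exact permutation p = 0.3, adjusted over the 5 ratios 0.875). The differences were 0.35 for P2ry13 (exact p = 0.4), 0.60 for P2rx4 (exact p = 0.9), 0.40 for P2rx7 (exact p = 0.6) and 0.40 for Entpd1 (exact p = 0.7). With 3 against 3 libraries this test cannot go below 0.1. The 5 ratios share the P2ry12 count of their library as denominator, 3260 in LPC day 10 replicate 1, so their common direction is not 5 independent results. Without LPC day 10 replicate 1 the difference was 0.59 for P2ry6, and it turned to -0.54 for P2rx4, -0.16 for P2rx7 and -0.12 for Entpd1. Without LPC day 3 replicate 1 it was -0.03 for P2rx4. Leaving out LPC day 10 replicate 3 gave 0.42 for P2ry13, 1.48 for P2ry6, 1.80 for P2rx4, 0.81 for P2rx7 and 0.69 for Entpd1.

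**Figure D3:**
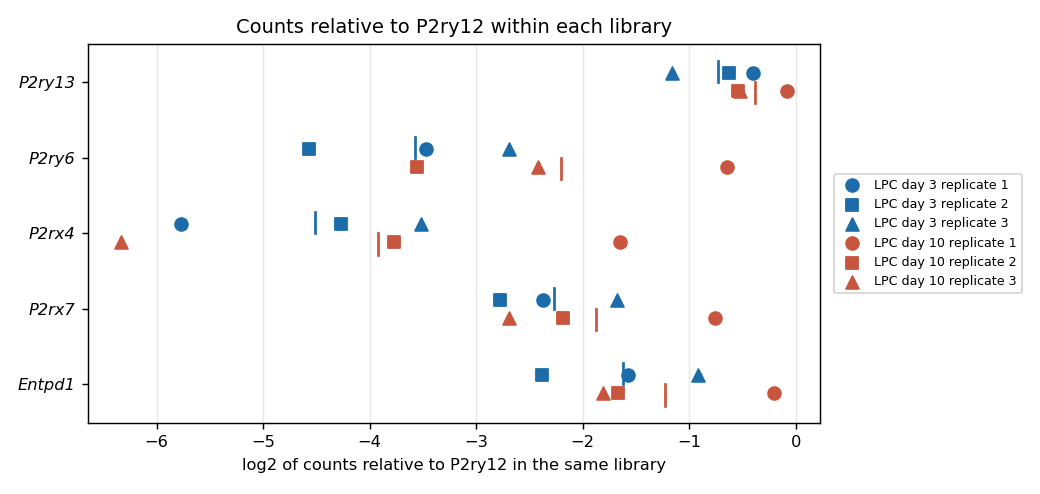
Log2 of each gene's counts relative to P2ry12 in the same library (horizontal axis); blue marks are LPC day 3 and red marks LPC day 10, marker shape gives the replicate number, and short vertical lines are group means. LPC day 10 replicate 1 (red circle) is the rightmost point for all 5 genes, and the groups overlap for all 5.

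Levels can be compared between genes only per length, here as TMM-scaled CPM per kilobase of exon. P2ry12 was the highest member in 6 of 6 libraries (643 ± 189 at day 3, 1075 ± 1382 at day 10) and P2ry13 the next in 6 of 6 (406 ± 168 and 764 ± 960). Within a library P2ry12 exceeded P2ry13 by 1.05 to 2.22 fold, and their ranges across libraries overlapped. Entpd1 came below them at 94.6 ± 24.2 and 154 ± 167, and it exceeded P2rx7 by 1.41 to 1.97 fold within every library. P2rx7 had 55.9 ± 10.4 and 83.3 ± 80.2, and its range across libraries overlapped that of Entpd1.

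P2ry6 was the member whose place in this order varied, with 48.6 ± 18.8 CPM per kilobase at day 3 and 182 ± 222 at day 10. It was above Entpd1 in 2 of 6 libraries, LPC day 10 replicates 1 and 3, and above P2rx7 in 3 of 6. By the length of the longest coding transcript it was above P2rx7 in 4 of 6, so the order of this pair depends on the length used. P2rx4 was lowest in 6 of 6 libraries under both lengths, with 11.95 ± 7.1 and 12.9 ± 2.2 CPM per exon kilobase, and by exon length its range across libraries lay below that of every other member. By transcript length it overlapped the range of P2rx7. In the authors' FPKM, whose columns are known by group only, P2ry12 ran from 453 to 861 at day 3 and from 193 to 1680 at day 10, and P2rx4 from 4.23 to 16.2 and from 7.54 to 22.2.

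**Figure D4:**
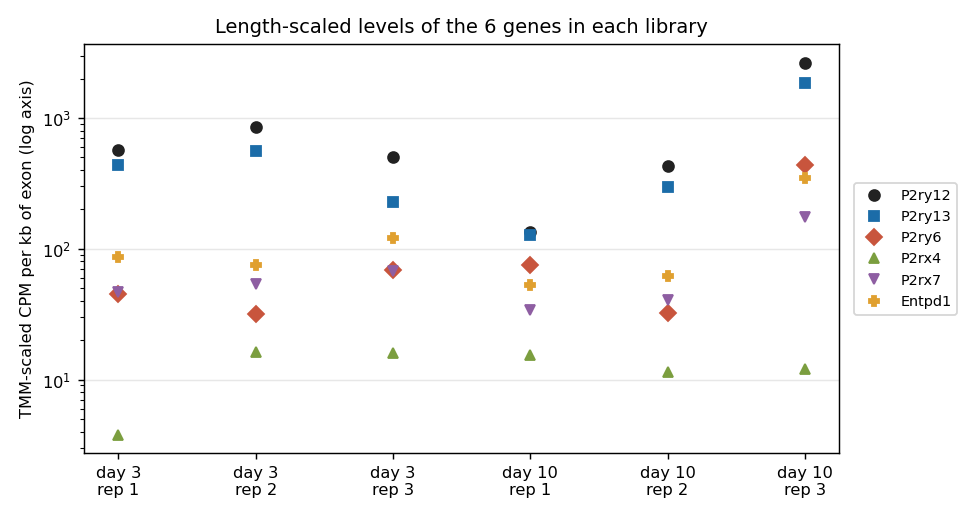
TMM-scaled CPM per kilobase of exon (log axis) of the 6 genes, 1 point per gene and library. P2ry12 and P2ry13 lie on top in all 6 libraries and P2rx4 lies lowest in all 6, while P2ry6 is above Entpd1 in LPC day 10 replicates 1 and 3.

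The members also differed in how they varied together. Over the 6 libraries the Pearson r of log2 CPM was 0.97 between P2ry12 and P2ry13 and 0.99 between P2rx7 and Entpd1. Without LPC day 10 replicate 3 these were 0.92 and 0.94 over 5 libraries. P2ry12 and P2ry6 had 0.55 over 6 libraries and -0.68 over 5, and P2ry13 and P2ry6 had 0.60 and -0.81. P2rx4 had values from -0.17 to 0.12 with the other members over 6 libraries. These are descriptions of few points that share their library, depth and scaling factor, and no p is given.

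Among 6546 tested genes with a mean of at least 10 CPM, the likest pattern to each member was read the same way over the 6 libraries. For P2ry12 it was Ms4a6c (r 0.993) and Tbc1d5 (0.985), and for P2ry13 it was Fem1c (0.990) and Lcp1 (0.988), the actin-bundling plastin of leukocytes. P2ry6 had Atp6v0a1 (r 0.996), a subunit of the vacuolar proton pump, and Clcn6 (0.993), an endosomal chloride transporter. Atp6v0a1 stood at 165, 142 and 207 CPM on day 3, then 260, 143 and 791 CPM on day 10, so that it shared the high values of P2ry6 in LPC day 10 replicates 1 and 3. P2rx4 had Tal1 (r 0.981), a haematopoietic transcription factor, and Arhgap25 (0.968). P2rx7 had Dennd4a (0.996) and Ktn1 (0.995), and Entpd1 had Slc31a1 (0.996), a copper transporter, and Tnfaip8 (0.996). Apart from the P2rx4 pair, each of these genes was highest in LPC day 10 replicate 3. Over the other 5 libraries the r of these 12 pairs ran from 0.949 to 0.996. Those 5 were among the 6 libraries by which the genes were picked from 6546, so high values were largely set by the choice.

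Neighbouring genes were read for signal that could be shared. P2ry12 and P2ry13 lie within the span of Med12l on the opposite strand, whose exons overlap those of P2ry12 by 9 bp and those of P2ry13 by 0 bp. Med12l had 134, 505 and 238 CPM on day 3, then 144, 261 and 684 CPM on day 10 (log2 fold change 0.31, without LPC day 10 replicate 3 -0.56). It was lowest in day 3 replicate 1, not in day 10 replicate 1. No source used here states whether the counting used strand, so reads from the 9 shared bases cannot be assigned. Of the other receptors in this cluster, P2ry14, a UDP-glucose receptor, had at most 16.1 CPM, and Gpr171 had no count in any library.

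Around the other members, Camkk2, a kinase gene that ends 1431 bp after P2rx4, had 5.99, 52.7 and 37.6 CPM on day 3, then 33.9, 25.2 and 51.4 CPM on day 10. It was lowest in day 3 replicate 1, as P2rx4 was. Gm44545, a predicted transcript inside the P2ry6 span with no exon overlap, had 126 CPM in LPC day 10 replicate 3 and at most 1.88 CPM elsewhere. A microRNA gene, Mir8115, overlaps P2rx7 exons by 119 bp and could not be told apart from it. P2ry2, which lies 21918 bp from P2ry6, had at most 1.78 CPM.

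Around these members, 75 other genes of nucleotide and adenosine signalling were listed in 9 groups, of which 70 were in the table and 43 were tested. With all libraries 22 were higher and 21 lower at day 10 by the fitted value (median log2 fold change 0.09), and 0 passed edgeR's adjusted threshold. At an unadjusted p under 0.05 there was 1, Entpd5. Groups did not overlap for 6 of the 43 (13.95%, against 8.45% of all genes tested), 5 of them lower at day 10. The share of all genes lower in this way with all libraries was not counted. With LPC day 10 replicate 3 left out, 17 were positive and 26 negative (median -0.16), and 0 passed. Of the 43, 14 (32.6%) were highest in LPC day 10 replicate 3, against 5 of the 6 members and 25.6% of all genes tested.

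Few other surface receptors for nucleotides had enough counts to be tested. Of the other P2X genes 0 of 5 reached the minimum for testing with all libraries, and the summed level of these 5 was at most 9.05 CPM in any library. P2rx1 was chosen after its values were seen, with 4.62, 0.285 and 9.05 CPM on day 3, then 0, 0.108 and 0 CPM on day 10. Its groups did not overlap, but this rests on 2 raw counts in day 3 replicate 2 against 1 in day 10 replicate 2. In the fit without LPC day 10 replicate 3, where P2rx1 was tested, it did not pass (adjusted p = 0.853 in edgeR, unadjusted 0.0488). Of the other 6 P2Y genes listed 1 was tested, P2ry14 (log2 fold change -1.43 ± 2.14, adjusted p = 0.999 in edgeR, or -0.98 with LPC day 10 replicate 3 left out). Adora3, an adenosine receptor of microglia, had 30.6, 47.7 and 16.9 CPM on day 3, then 34.8, 14.6 and 10.5 CPM on day 10 (log2 fold change -0.67 ± 1.31, without that library -0.40). Adora1, the other tested adenosine receptor, had at most 27.2 CPM, with a log2 fold change of 1.85 ± 1.91, or 2.27 without it.

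The enzymes that act around Entpd1 were unequal. Nt5e (CD73), which turns AMP into adenosine, had 2.13 CPM in day 3 replicate 2, 0.419 CPM in day 10 replicate 1 and no count in the other 4 libraries. It was named after its values were seen. Enpp1, a phosphodiesterase that cleaves ATP, was the only tested gene of 9 listed ectonucleotidases, at 74.4, 27.8 and 146 CPM on day 3, then 92.5, 94.6 and 380 CPM on day 10. Its log2 fold change was 1.19 ± 0.92, and 0.15 without LPC day 10 replicate 3.

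Entpd5, a relative of Entpd1 that acts in the endoplasmic reticulum, had 52.5, 54.4 and 99.2 CPM on day 3, then 3.98, 11.2 and 1.61 CPM on day 10. All 3 day 10 libraries were below every day 3 library, on 38, 104 and 6 raw counts. Its log2 fold change was -3.60 ± 1.32 (adjusted p = 0.468 in edgeR, unadjusted 0.00954), and -3.20 ± 1.03 without LPC day 10 replicate 3 (adjusted p = 0.766 in edgeR). Entpd7 had a log2 fold change of -1.20 ± 1.17 with overlapping groups, and -0.68 without that library. Since its groups did not overlap, leaving out a library could not change the order of the 2 time points for Entpd5, which did not pass the test.

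Among genes that handle nucleosides, Slc29a3, a lysosomal nucleoside transporter, was the most abundant, at 1480, 1323 and 1649 CPM on day 3, then 959, 944 and 3872 CPM on day 10. It repeated the pattern of P2rx7 and Entpd1, with 2 day 10 libraries below and 1 above the day 3 libraries (log2 fold change 0.38, without that library -0.67). Pnp, purine nucleoside phosphorylase, had a log2 fold change of 1.87 ± 0.93 (adjusted p = 0.822 in edgeR), and -0.02 without LPC day 10 replicate 3. Slc29a1, a plasma membrane nucleoside transporter, had 37.7, 19.9 and 48.5 CPM on day 3, then 13.7, 13.3 and 0.269 CPM on day 10. The last of these values of Slc29a1 rests on 1 raw count. Its groups did not overlap (log2 fold change -1.95 ± 1.47, adjusted p = 0.999 in edgeR, or -1.41 with LPC day 10 replicate 3 left out). Ada, adenosine deaminase, was chosen after its values were seen, as the 1 pathway gene with all day 10 libraries above day 3. It had 4.13, 6.26 and 5.55 CPM on day 3, then 8.58, 9.15 and 10.5 CPM on day 10 (log2 fold change 0.82 ± 1.79, without that library 0.71). The raw counts of Ada were 42, 44 and 46 on day 3, then 82, 85 and 39 on day 10. Its highest CPM thus came from its fewest raw counts, in LPC day 10 replicate 3 with a TMM factor of 0.637.

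Of the routes of nucleotide release, Lrrc8d, a volume-regulated anion channel subunit, had a log2 fold change of 0.12 ± 0.85 and Calhm2, a member of a family of large-pore channels, 1.62 ± 0.98. They stood at -0.09 and -0.49 without LPC day 10 replicate 3. Lrrc8c, another subunit, had groups that did not overlap, at 15.8, 8.97 and 6.75 CPM on day 3, then 2.72, 6.24 and 0 CPM on day 10 (log2 fold change -1.80, without that library -1.25). None of these passed the test.

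Downstream of the P2Y receptors, 17 of 18 listed genes were tested, 9 with a positive and 8 with a negative fold change, and 0 passed. Kcnk13 encodes THIK-1, the potassium channel that sets the resting potential of microglia. It had 42.4, 50.7 and 18.6 CPM on day 3, then 10.1, 4.95 and 1.08 CPM on day 10. Every day 10 library was below every day 3 library, and LPC day 10 replicate 3, where P2ry12 was highest, had the lowest Kcnk13. The raw counts of Kcnk13 at day 10 were 96, 46 and 4. The last library had 0 counts for 15.4% of the genes tested, and the part of that in its Kcnk13 value was not tested. The log2 fold change of Kcnk13 was -2.78 ± 1.5 (adjusted p = 0.878 in edgeR), and -2.35 ± 1.23 without that library.

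Rgs2, which restrains Gq signalling, had 475, 457 and 892 CPM on day 3, then 193, 295 and 1751 CPM on day 10. Its fold change went from 0.29 to -1.34 when LPC day 10 replicate 3 was left out, as for P2ry12. Itpr2, an intracellular calcium channel, had 1.04 and 0.13, and Plcb3, a phospholipase C, had 1.95 and 0.61 on the same log2 scale with and without that library. Gnaq, the Gq subunit used by P2Y6, was chosen after its values were seen. It had 257, 210 and 250 CPM on day 3, then 94.0, 166 and 85.5 CPM on day 10, with no overlap (log2 fold change -1.05 ± 0.83, adjusted p = 0.999 in edgeR, or -0.90 with LPC day 10 replicate 3 left out).

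In the P2X7 and inflammasome group 9 of 10 genes were tested, 4 with a positive and 5 with a negative fold change, and 0 passed. The inflammatory caspases Casp1 and Casp4 had the smallest p, with log2 fold changes of 1.69 ± 1.29 and 1.41 ± 1.17 and values of 1.46 and 1.40 without LPC day 10 replicate 3. Both had overlapping groups. Nek7, a partner of NLRP3, had -0.23 ± 0.76, and Tmem176b, an inhibitor of the inflammasome, had -0.26 ± 0.79. These were -0.39 and -1.17 without that library.

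**Figure D5:**
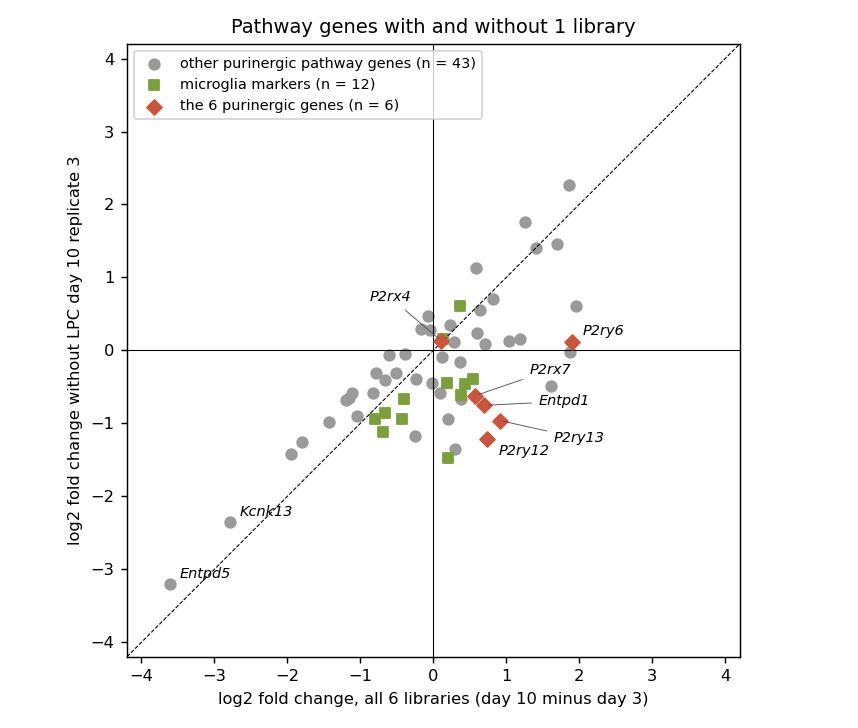
Log2 fold change (day 10 minus day 3) with all 6 libraries against the value without LPC day 10 replicate 3, for the 6 genes (diamonds), 12 microglia markers (squares) and 43 other pathway genes (circles); the dashed line marks equal values. P2ry12, P2ry13, P2rx7 and Entpd1 lie below the dashed line with opposite signs on the 2 axes, while Kcnk13 and Entpd5 are negative on both.

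Markers of other cells were summed in each library, including cells that the gate should remove: neutrophils by Ly6G, T cells by CD3, and oligodendrocytes, neurons and other cells without CD11b. Of 102 listed markers in 13 groups, 83 were in the table, 16 were tested, 33 had no count in any library and 0 passed. At an unadjusted p under 0.05 there were 3, Mrc1, Mbp and Cspg4. Mrc1, the mannose receptor of border macrophages, had 19.8, 93.2 and 75.9 CPM on day 3, then 5.55, 3.88 and 6.19 CPM on day 10 (log2 fold change -3.60 ± 1.34, adjusted p = 0.480 in edgeR, or -3.77 with LPC day 10 replicate 3 left out). Mbp, a myelin gene, had 0.884, 10.2 and 0.241 CPM on day 3, then 62.3, 41.4 and 13.2 CPM on day 10 (log2 fold change 3.36 ± 1.60, adjusted p = 0.774 in edgeR, or 3.73 with that library left out). The groups did not overlap for either gene. Cspg4 had a log2 fold change of 3.17 ± 1.53 (adjusted p = 0.790 in edgeR, or 3.71 with that library left out) with overlapping groups. In LPC day 10 replicate 3, where 5 members were highest, the summed border-associated macrophage markers were also highest, at 1013 CPM against 56.7 to 503 in the other 5 libraries. Stab1 alone gave 1007 of those CPM, while Mrc1 had 6.19 CPM there and Cd163, Pf4, Cbr2, F13a1, Ms4a7, Clec10a and Folr2 had no count there. Monocyte markers were lowest in that library at 20.2 CPM, against 20.5 to 262 CPM elsewhere. Their part in the members' values was not tested.

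In LPC day 10 replicate 1, which had the highest ratios to P2ry12, oligodendrocyte markers summed to 114 CPM and progenitor markers to 104 CPM, both the highest of the 6 libraries. The progenitor sum was Cspg4, with no count there for Pdgfra, Olig1, Olig2, Gpr17, Neu4 and C1ql1. Oligodendrocyte markers ran from 26.6 to 34.3 CPM on day 3, then from 15.6 to 114 CPM on day 10. Neutrophil markers summed to 111 CPM in day 3 replicate 3 and to at most 0.269 CPM elsewhere. The part of these in the members' values was not tested.

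The remaining groups gave low or mixed sums. Endothelial markers ran from 4.13 to 34.2 CPM on day 3, then 2.15 to 81.3 CPM on day 10, mostly from Flt1 at day 10. Astrocyte markers, mainly Slc1a3, ran from 31.8 to 128.5 CPM and 41.4 to 67.6 CPM. B cell markers ran from 566 to 820 CPM and 337 to 684 CPM, nearly all from Ighm, with Pax5 at no count. Dendritic cell markers reached 28.3 CPM, neuronal markers 10.9 CPM, mural cell markers 4.34 CPM and T and NK cell markers 0.0982 CPM, and fibroblast markers had no count in any library.

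The authors' deposited table of fold changes gives day 3 minus day 10 with an unadjusted p. In the authors' deposited table P2ry12 had a log2 fold change of 0.48 (p = 0.624), P2ry13 0.12 (p = 0.902) and P2ry6 -0.94 (p = 0.343). The authors' deposited table lists -0.40 for P2rx4 (p = 0.607), -0.01 for P2rx7 (p = 0.983) and 0.02 for Entpd1 (p = 0.973). In that direction a positive value is higher at day 3. P2ry6 and P2rx4 were thus on the day 10 side both there and in the fit above, while P2ry12 lay on opposite sides in the 2 sources. P2ry13, P2rx7 and Entpd1 were close to 0 in the authors' deposited table. By sign alone P2ry13 and Entpd1 also lay on opposite sides, and P2rx7 on the same side. On the authors' normalized log2 values limma-trend gave day 10 minus day 3 differences of 0.10 for P2ry13, 0.15 for Entpd1 and -0.24 for P2ry12.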

How the data were processed

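Per the labels' protocols, cDNA from polyadenylated RNA was amplified with a NuGEN Ovation kit and read as pairs of 100 bp. The submitters' processing notes name the aligner STAR (2.5.2a) and the build GRCm38, and for statistics limma (3.30.8) and edgeR (3.16.5) under R (3.3.2). How reads were assigned to genes, with which annotation and whether by strand, is stated in no source used here. The authors deposited raw counts per gene for each library, and these entered the tests. The authors also deposited FPKM values (columns known by time point only), normalized log2 values, and their own comparison as a log2 fold change and unadjusted p-value for each gene. Each normalized value equalled, within 0.005, the log2 of count + 0.5 shifted by a library constant. The score column of average reads in the deposited table was not used. The sign of the authors' fold changes was taken from their normalized values (r = -0.996 with day 10 minus day 3).

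Counts with at least 10 in filterByExpr were scaled by TMM and fitted by time point alone in edgeR 4.0.16 (R 4.3.3), with p-values of the quasi-likelihood F-test adjusted over all genes by Benjamini-Hochberg with a threshold of 0.05. The SE of a log2 fold change was taken as its absolute value over the square root of F. Log2 CPM used a prior count of 2 and ratios a pseudocount of 0.5 per count. Positions and exon lengths came from GENCODE M21 (GRCm38), matched for 24893 of 24984 identifiers. Where identifiers shared a symbol, that of the larger total kept it, and 14 others stayed among the counts under their identifier. Figures used Python 3.11.15, pandas 2.3.3 and matplotlib 3.10.9. Reads were amplified and carry no molecular identifiers, so counting error alone understates the true error.

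The members, lists, named genes and tests were chosen with earlier results of these data known. The text names the 6 members, the 2 most abundant tested genes and the 2 of smallest p of each pathway list, and the 2 genes most like each member. It also names the annotated neighbours, and the most abundant gene of each marker list. Genes named as members of a marker list, and genes said to be chosen after their values were seen, are outside this rule. A few genes it covers are not reported here. Alternatives were other scalings (RLE, upper-quartile, library size), other low-count filters, DESeq2 1.42.0, limma-voom and limma-trend (limma 3.58.1), the replicate number as a block, a ratio pseudocount of 1, and leaving out each library. The authors' normalized log2 values, scaling to 12 microglia markers and other scalings of the 5 libraries were added after seeing the data.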

Additional observations from a re-analysis of the deposited data

How the results depend on the processing

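No member passed the adjusted threshold in 23 alternative fits (lowest adjusted p 0.175, for P2ry6; DESeq2 gave no p for Entpd1), but 34 of 138 member values changed sign. With all 6 libraries every member stayed positive under RLE, upper-quartile, library-size and marker scaling, the low-count filters and DESeq2. RLE moved the median log2 fold change of all genes to 0.13. Under limma-voom P2ry12, P2ry13, P2rx7 and Entpd1 had log2 fold changes of -0.50, -0.14, -0.0092 and -0.0463, and with sample quality weights (0.267 for LPC day 10 replicate 3) -0.95, -0.70, -0.37 and -0.50. P2ry12 had -0.26 on log2 of FPKM plus 1 or plus 0.1, and -0.24 on the authors' normalized values, an alternative added after seeing the data. In the 5 libraries without LPC day 10 replicate 3, scalings added after seeing the data gave the same 4 genes, in that order, -1.26, -1.003, -0.66 and -0.80 (RLE), -0.98, -0.75, -0.40 and -0.53 (upper-quartile), and -1.03, -0.76, -0.30 and -0.43 (library size). Scaled to microglia markers, P2ry12, P2ry13 and Entpd1 had -0.53, -0.29 and -0.0381. Apart from the omission of that library, the cause of these reversals was not tested.

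Leaving out each library in turn gave -1.22 to 1.25 for P2ry12, -0.96 to 1.40 for P2ry13, 0.12 to 2.39 for P2ry6, -0.31 to 0.39 for P2rx4, -0.62 to 0.94 for P2rx7 and -0.75 to 1.10 for Entpd1. The reversals came without LPC day 10 replicate 3 for P2ry12, P2ry13, P2rx7 and Entpd1, and for P2rx4 without LPC day 3 replicate 1 (-0.31) or LPC day 10 replicate 1 (-0.04). The log2 ratios to P2ry12 ran from 0.13 to 0.52 for P2ry13, 0.59 to 2.04 for P2ry6, -0.54 to 1.80 for P2rx4, -0.16 to 0.81 for P2rx7 and -0.12 to 0.75 for Entpd1. Of 40 alternative ratio values 4 changed sign, for P2rx4 without LPC day 3 replicate 1 (-0.03) and for P2rx4, P2rx7 and Entpd1 without LPC day 10 replicate 1.

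The number of genes passing, 12 higher and 0 lower at day 10, was 0 higher under RLE or library-size scaling, on FPKM with either pseudocount, on the authors' normalized values and under limma-voom (1 lower). It was 2 higher and 1 lower with quality weights, 20 and 1 with a minimum of 1 CPM in 3 libraries, 113 and 5 without a filter, and 80 and 33 with DESeq2. Without LPC day 3 replicates 1, 2 and 3 it was 36, 41 and 26 higher, and without LPC day 10 replicates 1, 2 and 3 it was 208, 169 and 1 higher, with 0 to 4 lower. At an unadjusted p under 0.05, 501 genes were positive and 145 negative with edgeR.

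With the replicate number as a replicate block, 0 genes passed, P2ry12 had -0.37 and P2ry13 -0.10, and the other members stayed positive. Same-numbered libraries deviated from their group means with correlations of 0.0733, -0.0351 and 0.0073. For libraries of different number the values ran from -0.0805 to 0.0631. With 3 libraries a group these values cannot decide whether the numbers pair the libraries. In 3 libraries a group, sign-flip tests of the ratios cannot go below 0.25. Depth limits the genes with few counts, such as Nt5e and the other P2X receptors, more than the members, whose counts ran from 270 to 25191.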
